A study of Homo sapiens with 21 samples.

Results

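Knockdown of the microRNA miR-147b was profiled by mRNA sequencing in H1975 and PC9ER, a pair of human lung cancer cell lines that carry mutant EGFR and that the labels give as positive for the T790M change of this receptor. Each line gave 1 library labelled as MIR147B knockdown and 1 labelled as control knockdown, so the comparison rests on 4 of the 21 libraries of the series, chosen by these labels and paired by cell line. The study addressed tolerance and resistance to EGFR inhibitors, and no drug is labelled for these 4 libraries. A miR-21 knockdown library of each line shares the same controls, and miR-147b was overexpressed against a scrambled control in AALE airway epithelial cells, HCC827 and PC9. The labels describe lentiviral infection with puromycin selection without saying for which libraries, and they do not name the agent used to knock the miRNA down.

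A microRNA is a short RNA that guides Argonaute proteins to matching sites, mostly in the 3′ untranslated regions of mRNAs, which are then destabilised or translated less. The seed, bases 2 to 8 of the microRNA, carries most of the match. The gene of miR-147b lies in the last exon of C15orf48, which encodes a small mitochondrial protein related to NDUFA4, a subunit of respiratory complex IV. In lung cancer cells miR-147b has been reported to act on VHL, the ubiquitin ligase subunit that marks HIF proteins for degradation, and on succinate dehydrogenase, the enzyme shared by the TCA cycle and the respiratory chain. An inhibitor of a microRNA relieves its targets, so the direction to look for in a target is a higher mRNA level after knockdown.

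The sequences below show what a target has to match. RefSeq places mature miR-147b-3p at chr15:45433098-45433118 on the plus strand and its relative miR-147a at chr9:120244985-120245004 on the minus strand (GRCh38.p14), and capitals mark the seed. The relatives differ in the seed by C6U (position counted from the 5′ end of miR-147b), so that a full match to either seed mismatches the other.

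hsa-miR-147b-3p: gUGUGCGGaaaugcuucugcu
hsa-miR-147a: gUGUGUGGaaaugcuucugc

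A full 7-base match to the miR-147b seed is CCGCACA, an 8-base match adds an A (CCGCACAA), and a weaker 7-base match is CGCACAA. Among 18395 protein-coding genes with an annotated 3′ untranslated region (GENCODE 29, GRCh38), searched on the transcribed strand of the longest region and each counted once in its strongest class, 56 (0.304%) held the 8-base match, 382 (2.08%) the full 7-base match and 185 (1.01%) the weaker 7-base match. The 3 reported or related targets each held a match of a different class, shown with capitals on the match. The VHL site lies at chr3:10150737-10150766 on the plus strand, the SDHD site at chr11:112095690-112095719 on the plus strand and the NDUFA4 site at chr7:10933562-10933591 on the minus strand (GRCh38).

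VHL: taacttgccatCCGCACAgaaaatacgaga
SDHD: attgttattttCGCACAAtgggaatctcta
NDUFA4: agaagccacatCCGCACAAttttccactta

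The knockdown itself could not be read from these libraries, which were made from mRNA. The precursor gene MIR147B had 0 counts in all 6 knockdown and control libraries, as did MIR21, and 3 counts, the number that an observed 0 still allows, equal 0.115 to 0.204 CPM, the count scaled to library size, in these libraries. The same gene reached 22.1 CPM in AALE, 13.3 CPM in HCC827 and 2.93 CPM in PC9 with miR-147b overexpressed and had 0 counts in the 3 scrambled controls, and it passed edgeR's quasi-likelihood test there (log2 11.15 ± 0.55 SE, 3 lines, adjusted p = 0.0454), as the single gene of 18434 that did (0.00542%). The call was lost without any 1 of the scrambled libraries, without the AALE or HCC827 miR-147b library and without the AALE miR-21 library. This checks the overexpression labels, not the knockdown ones.

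The host transcript and the proposed targets differed little, and not in a shared direction. C15orf48 stood at 50.2 CPM in control and 60.7 CPM in anti-miR-147b H1975 cells, and at 296 and 247 CPM in PC9ER. It was higher in 1 line and lower in the other (fit over the lines, log2 -0.04 ± 0.48 SE).

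VHL was at 45.6 CPM in control and 48.4 CPM in knockdown H1975 cells, and at 64.7 and 65.4 CPM in PC9ER (log2 0.05 ± 0.32 SE). SDHD, the membrane anchor subunit of succinate dehydrogenase, was at 73.9 and 71.1 CPM in H1975 and at 43.5 and 47.7 CPM in PC9ER (log2 0.03 ± 0.29 SE). NDUFA4 was at 132 and 122 CPM in H1975 and at 170 and 144 CPM in PC9ER (log2 -0.18 ± 0.28 SE). VHL was higher in both lines by log2 0.09 and 0.02, SDHD was lower in H1975 and higher in PC9ER, and NDUFA4 was lower in both. None of the 3 passed the test, and each difference was smaller than its standard error. With miR-147b overexpressed, log2 ratios in AALE, HCC827 and PC9 were -0.11, 0.17 and 0.01 for VHL and -0.04, 0.02 and 0.55 for SDHD. For NDUFA4 they were -0.93, -0.27 and -0.10. NDUFA4 was thus the 1 of the 3 that was lower in every overexpressing line, and none of them passed the test there. It holds the 8-base match, but 48 tested genes with that match had medians of 0.05, 0.03 and -0.06 in these lines. Genes with no match had medians of 0.01, 0.0 and 0.0.

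**Figure D1:**
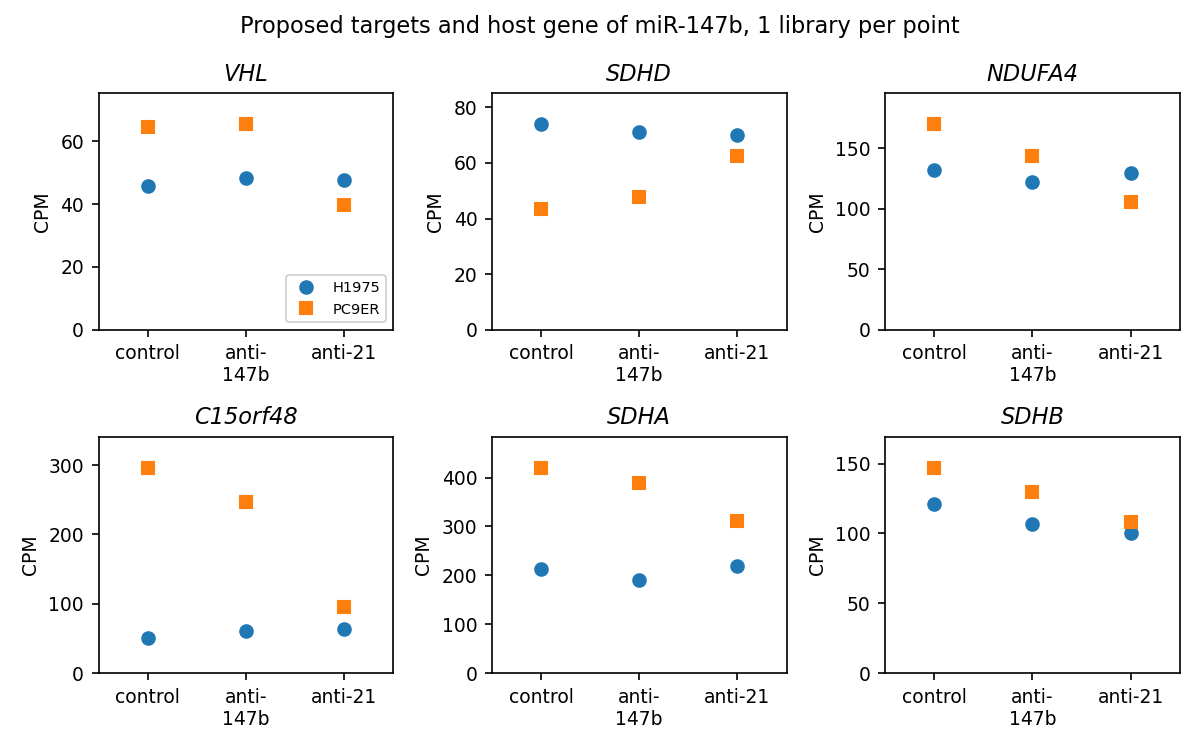
Level in CPM (y axis, linear from 0) of VHL, SDHD, NDUFA4, the host gene C15orf48, SDHA and SDHB in the control, anti-miR-147b and anti-miR-21 libraries of H1975 (circles) and PC9ER (squares), 1 library per point. The anti-miR-147b point lies near the control point of its line in every panel, and the PC9ER anti-miR-21 point departs further, as for C15orf48 at 95.5 CPM against 296 CPM in the control.

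Across all genes with a seed match the picture was the same. The tested genes with the 8-base match had median log2 ratios of -0.02 in H1975 and 0.01 in PC9ER (48 genes, 9 higher in both lines or 18.8%), those with the full 7-base match 0.04 and -0.01 (321 genes, 24.6% higher in both) and those with the weaker match 0.04 and 0.06 (142 genes, 30.3%). Genes with no match had medians of 0.00 and 0.02 (13087 genes, 24.2% higher in both), and over all genes tested 24.1% were higher in both lines. No site class had a median further than 0.06 from 0 in either line, and no gene with an 8-base match was 1.5-fold higher or lower in both.

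Of the genes with the 8-base match, the 4 with the highest values of the smaller of both line ratios were ADAT3, AMMECR1, PDK1 and CORO1C, named after their values were seen. ADAT3, a subunit of a tRNA adenosine deaminase, was at 5.84 CPM in control and 6.6 CPM in knockdown H1975 cells and at 4.28 and 4.82 CPM in PC9ER (log2 0.17 ± 0.37 SE). AMMECR1 was at 42.6 and 47.9 CPM in H1975 and at 15.7 and 20.9 CPM in PC9ER (log2 0.27 ± 0.42 SE). PDK1, the pyruvate dehydrogenase kinase that HIF induces, was at 15.7 CPM in control and 17.6 CPM in knockdown H1975 cells and at 9.24 and 12.6 CPM in PC9ER (log2 0.30 ± 0.33 SE). CORO1C, an actin-binding coronin, was at 381 and 423 CPM in H1975 and at 249 and 284 CPM in PC9ER (log2 0.17 ± 0.25 SE). In all 4 genes each knockdown library lay above the control of its own line. The difference fitted over the lines was smaller than its standard error. These genes were picked by their ratios, so the shared direction is no result. Centred on genes of like GC content and length, AMMECR1, PDK1 and CORO1C had log2 ratios of -0.03, -0.15 and 0.0 in PC9ER. In H1975 these were 0.24, 0.2 and 0.12, and ADAT3 had no centred value. With miR-147b overexpressed PDK1 was at log2 0.79, -0.09 and 0.6 in AALE, HCC827 and PC9, and ADAT3 at 0.44, 0.03 and -0.34. AMMECR1 was at 0.08, -0.14 and 0.16 there, and CORO1C at 0.17, -0.17 and 0.16. The PDK1 site lies at chr2:172601367-172601396 on the plus strand and the CORO1C site at chr12:108646033-108646062 on the minus strand (GRCh38), shown as examples of the 8-base match.

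PDK1: ttctgtccccaCCGCACAAatctcatcttg
CORO1C: aacatgtccctCCGCACAActaacctgccc

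The pathways that these targets feed showed equally small differences. Of 14 tested genes of the VHL and HIF axis 7 were higher and 3 lower in both lines, with medians of log2 0.06 in H1975 and 0.02 in PC9ER and 0 past the test. EGLN1, the oxygen-sensing hydroxylase upstream of VHL, was at 49.8 and 54.4 CPM in H1975 and at 39.7 and 42.7 CPM in PC9ER. HIF1A was at 401 CPM in control and 320 CPM in knockdown H1975 cells and at 41.4 and 59 CPM in PC9ER, which is lower in 1 line and higher in the other. With DESeq2's size factors in place of TMM, 4 of the 14 were higher in both.

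Succinate dehydrogenase genes were on the lower side: 0 of 8 tested subunits and assembly factors were higher in both lines and 4 were lower in both (SDHA, SDHB, SDHAF2 and C6orf57), with medians of -0.07 and -0.14. SDHA, the flavoprotein subunit, was at 213 and 191 CPM in H1975 and at 420 and 388 CPM in PC9ER (log2 -0.13 ± 0.27 SE). SDHB, the iron-sulphur subunit, was at 121 and 107 CPM in H1975 and at 147 and 130 CPM in PC9ER (log2 -0.18 ± 0.25 SE). Both subunits were lower in each knockdown library than in its control, by less than the standard error, and 0 of 8 passed the test. In the same lines 21.0% of all tested genes were lower in both.

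The 25 TCA cycle and pyruvate entry genes had medians of -0.11 in H1975 and 0.05 in PC9ER, 5 higher and 6 lower in both, and the 19 glycolysis genes had medians of 0.05 and -0.03. IDH1, the cytosolic isocitrate dehydrogenase, stood out in H1975 at 92.8 CPM in control and 54.1 CPM after knockdown, against 68.7 and 82 CPM in PC9ER. PC, pyruvate carboxylase, was likewise at 42.9 and 25.8 CPM in H1975 and at 86.1 and 91.5 CPM in PC9ER. Of 29 HIF target genes 10 were higher and 2 lower in both lines, with medians of 0.13 and 0.01. PLOD2, a collagen lysyl hydroxylase, was at 114 and 151 CPM in H1975 and at 21.7 and 29.7 CPM in PC9ER. ERO1L, an oxidase of the endoplasmic reticulum, was at 224 and 257 CPM in H1975 and at 71.5 and 97.8 CPM in PC9ER. Both were higher in each knockdown library than in its control. With DESeq2's size factors 6 of the 29 HIF targets were higher and 4 lower in both, and 0 of these genes passed the test with either scaling.

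**Figure D2:**
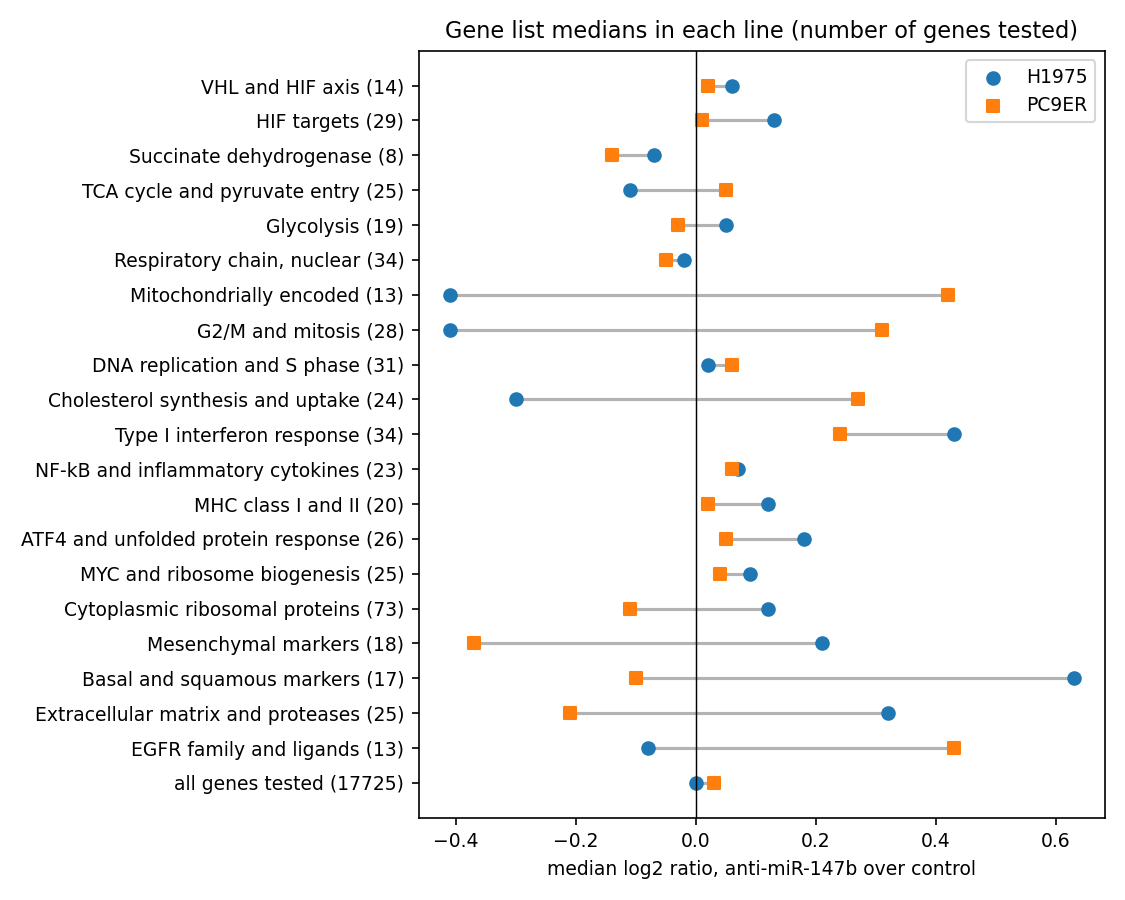
Median log2 ratio of anti-miR-147b over control (x axis) for 20 gene lists and all genes tested, in H1975 (circles) and PC9ER (squares), with the number of tested genes in brackets and a line joining both medians. The VHL, succinate dehydrogenase and TCA lists lie within 0.14 of 0, the interferon list lies to the right in both lines, and the mitochondrially encoded, mitotic, cholesterol, mesenchymal and basal lists lie on opposite sides of 0 in the lines.

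The 6 knockdown and control libraries held 15516460 to 23680635 expected counts in 56632 genes, which is 85.4% to 90.6% of their reads. Epithelial markers summed to 11900 and 12200 CPM in control and knockdown H1975 cells and to 22400 and 18800 CPM in PC9ER, and fibroblast markers to 16.8, 18.5, 48.6 and 43.9 CPM in the same order, with 9 of 10 fibroblast markers under 1 CPM in all 4. Of the leukocyte markers 2 of 15 were at 0 in all 4 libraries (MS4A1 and FCGR3A), and the sum was 69.8, 70.4, 335 and 273 CPM, with LAPTM5 at 165 and 130 CPM in PC9ER. In such bulk samples fewer cells of a type and less RNA per cell cannot be told apart. In PC9ER the anti-miR-21 library lay far from the control, with an SD of protein-coding log2 ratios of 1.167 against 0.310 in H1975. Between the anti-miR-147b and anti-miR-21 libraries the SD was 0.916 in PC9ER and 0.298 in H1975. A ratio does not say which of its libraries is unusual. The PC9ER control library stood apart in its small nucleolar RNA counts. The labels name no separate cultures, so the spread between libraries may be technical.

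Over the 6 libraries, with cell line as a block, 0 of 17725 genes passed edgeR's quasi-likelihood test for anti-miR-147b against control (0.0%), the smallest adjusted p being 0.784, and 146 genes had an unadjusted p below 0.05. limma voom called 0, and DESeq2 called 26 (0.147%), 3 higher and 23 lower. This fit takes its spread from all 6 libraries, among them the PC9ER anti-miR-21 library, which lay far from its control. With the 4 knockdown and control libraries alone edgeR called 19 of 16697 genes (0.114%), 2 higher and 17 lower. Leaving out any 1 library left a lone library in an arm, which is assumed to vary like the others. Such fits cannot assign the spread to a single library. Among protein-coding genes alone 0 passed, in the 6 libraries as in the 4. Against the anti-miR-21 libraries 0 of 17725 genes passed by edgeR (0.0%) and 1 by DESeq2, and 242 genes had an unadjusted p below 0.05.

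The genes that did pass in these other fits were mostly small nucleolar RNAs (snoRNAs), short RNAs that guide chemical modification of ribosomal RNA and are mostly cut from the introns of other genes. They made up 15 of the 17 lower genes in the 4 libraries and 21 of the 23 lower genes by DESeq2. Among the snoRNA genes tested, that is 15 of 62 in the 4 libraries and 21 of 71 by DESeq2. Over all genes tested, 0.114% and 0.147% were called. Both fits called 16 genes in common. Of the genes called higher, 2 and 3, each had 0 counts in at least 1 control library.

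The snoRNA counts were high in the control libraries. Summed over all 1529 snoRNA genes of the table, with no filter, they came to 216 CPM in control, 77.3 CPM in anti-miR-147b and 77.6 CPM in anti-miR-21 H1975 cells. In PC9ER the sums were 1550 CPM in control, 76.9 CPM in anti-miR-147b and 72.0 CPM in anti-miR-21 cells. The PC9ER control library was thus 7.19 times the next highest of the 15 miRNA libraries, the others lying between 56.6 and 216 CPM, while knockdown of either miRNA gave nearly the same sum in both lines. In the overexpression series the scrambled control of PC9 was also the highest, at 201 CPM against 83.1 CPM with miR-147b and 83.7 CPM with miR-21, whereas the AALE scrambled and miR-147b libraries were both at 56.6 CPM and HCC827 was at 93.6 and 108 CPM.

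**Figure D3:**
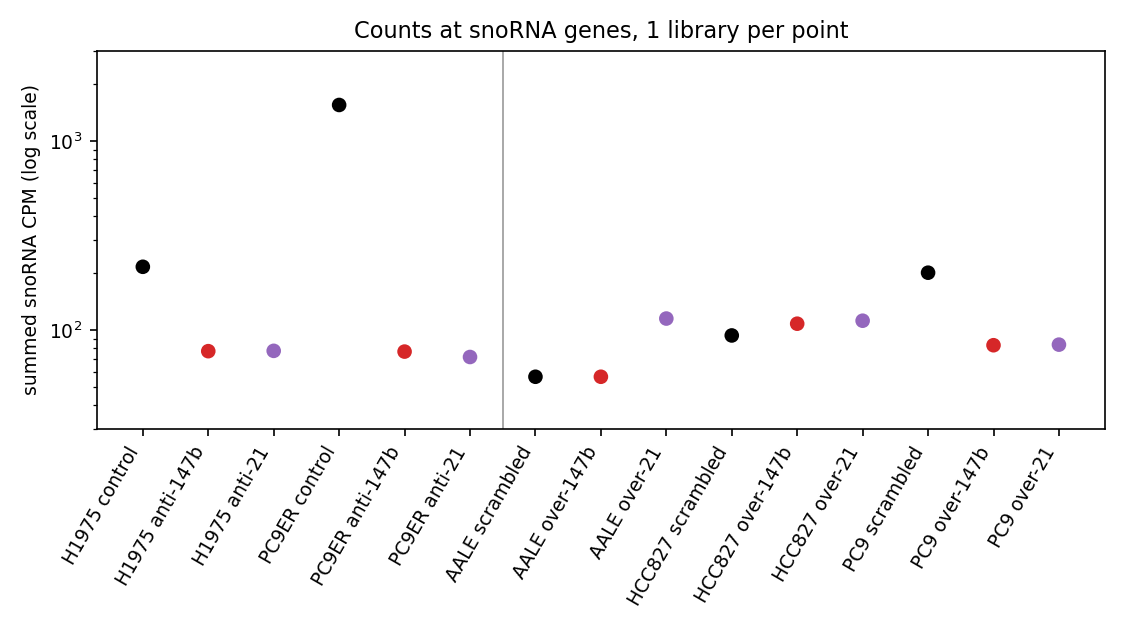
Summed CPM of 1529 snoRNA genes (y axis, log scale) in each of the 15 miRNA libraries, 1 library per point, with knockdown libraries left and overexpression libraries right of the line, and black for controls, red for miR-147b and purple for miR-21. The PC9ER control stands at 1550 CPM and the other libraries between 56.6 and 216 CPM.

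SNORD49A was at 13.3 CPM in control and 0.705 CPM in knockdown H1975 cells and at 139 and 3.13 CPM in PC9ER. SNORD31 was at 14.5 and 1.03 CPM in H1975 and at 144 and 3.48 CPM in PC9ER. SNORD43 was at 9.77 and 0.641 CPM in H1975 and at 133 and 2.73 CPM in PC9ER. These C/D box snoRNAs guide 2′-O-methylation, and in each the knockdown libraries lay below both controls. In the fit of the 4 libraries all 3 were lower (edgeR adjusted p = 0.00575 each), by 5.14, 4.89 and 5.18 on the log2 scale. In the 6 libraries their edgeR adjusted p was 0.784. The fit of the 4 libraries had 1 residual degree of freedom and leaned on the PC9ER control, the highest library in snoRNA counts. Genes could pass its filter through the control libraries alone, so its p-values carry these limits. RN7SK, the nuclear RNA that restrains the elongation factor P-TEFb, was at 37 and 3.4 CPM in H1975 and at 25.3 and 7.14 CPM in PC9ER (log2 -2.61 ± 0.49 SE). It was called by DESeq2 and not by edgeR.

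Of the snoRNA genes 29 reached 10 CPM in 1 of the 4 libraries, all 29 of them in the PC9ER control and 25 there alone, so those genes had to differ in PC9ER and their number is no result for that line. In H1975, which did not select them, 25 of these 25 were lower and 22 were 2-fold or more lower (median log2 -2.51). Of all 17725 tested genes 8824 were lower in H1975, and of 11114 genes of at least 10 CPM 0.846% were 2-fold or more lower. These 25 snoRNA genes were under 10 CPM in H1975. Some of their ratios there rest on few counts, as for SNORD18B (5 in control and 0 in knockdown) and SNORD52 (10 and 0). With a minimum of 10 counts in either library of the line, 71 of 78 snoRNA genes were lower in H1975 and 109 of 110 in PC9ER. Genes could pass this minimum through the control alone, so these counts carry the same limit in both lines. The share over all genes under this minimum was not computed. The host genes did not follow: RPL3, which carries SNORD43, was at 1590 and 1650 CPM in H1975 and at 2260 and 2140 CPM in PC9ER, and 15 hosts lay between -0.42 and 0.28 in H1975 and between -0.39 and 0.59 in PC9ER on the log2 scale. Because snoRNAs lie within other genes, the authors' counting could split their reads, and their counts are uncertain to that extent.

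The protein-coding genes differed from line to line. Among 11114 genes of at least 10 CPM in 1 of the 4 libraries, 61 were 2-fold or more higher (0.549%) and 94 lower (0.846%) in H1975, and 272 were higher (2.45%) and 82 lower (0.738%) in PC9ER. These are ratios of single libraries with no replicate check. Over the 10555 protein-coding genes among them the SD of the log2 ratio was 0.293 in H1975 and 0.374 in PC9ER, and the ratios of both lines had Pearson's r of -0.174 and Spearman's rho of -0.171, a description across genes, which are not independent. At 1.5-fold in both lines 17 genes were higher (0.153%) and 41 lower (0.369%), and 27 of the 41 were snoRNAs. Only 29 of the 11114 genes were snoRNAs, and 25 of these reached 10 CPM in the PC9ER control alone. Their fall in PC9ER was thus favoured by the filter. Over protein-coding genes alone, 51 were 2-fold or more higher (0.483%) and 56 lower (0.531%) in H1975, and 255 were higher (2.42%) and 22 lower (0.208%) in PC9ER. At 1.5-fold in both lines 15 of them were higher (0.142%) and 7 lower (0.0663%), while at any size 24.5% were higher and 20.1% lower in both, against 24.4% and 20.6% of all 11114 genes.

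**Figure D4:**
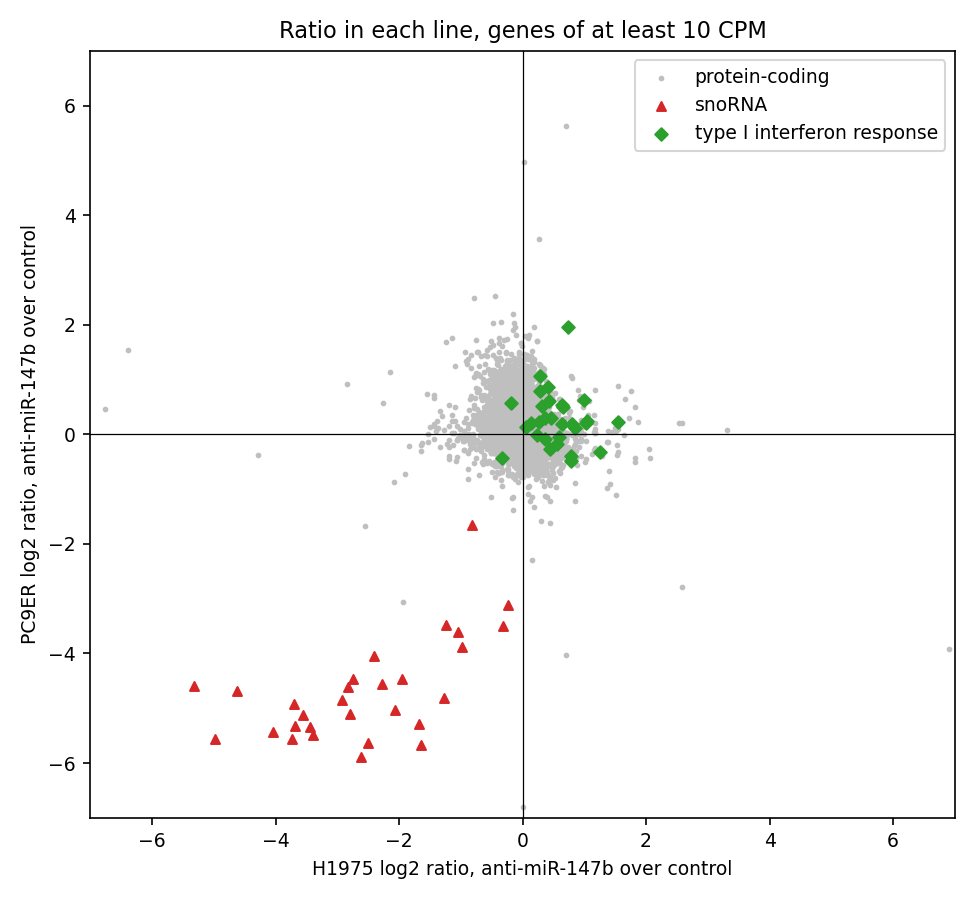
Log2 ratio of anti-miR-147b over control in H1975 (x axis) and PC9ER (y axis) for protein-coding genes (grey), snoRNAs (red triangles) and type I interferon response genes (green diamonds) of at least 10 CPM in 1 of the 4 libraries. The snoRNAs lie in the lower left, most interferon genes lie right of 0, and the grey cloud has no shared direction. Other gene classes are not drawn, and 4 genes lie past 7 log2 units in a line, outside the axes.

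Among the 15 protein-coding genes that were 1.5-fold or more higher in both lines were RAB43, COL12A1 and KYNU. RAB43, a small GTPase of membrane traffic, was at 2.88 CPM in control and 6.6 CPM in knockdown H1975 cells and at 40.6 and 70.8 CPM in PC9ER (log2 0.96 ± 0.48 SE). COL12A1, a fibril-associated collagen, was at 1.35 and 2.43 CPM in H1975 and at 12 and 24.6 CPM in PC9ER (log2 0.94 ± 0.38 SE). KYNU, an enzyme of tryptophan breakdown, was at 0.523 and 1.09 CPM in H1975 and at 24 and 38.8 CPM in PC9ER (log2 0.85 ± 0.39 SE). In all 3 the knockdown library was above its control in each line, and the H1975 level was low enough that the ratio rests on few counts.

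On the lower side, IGFBP7, a secreted growth factor binding protein, was at 101 and 57.6 CPM in PC9ER and at 0.0872 and 0 CPM in H1975. NEURL1B, a ubiquitin ligase of Notch ligand traffic, was at 89.7 and 53.5 CPM in PC9ER and at 1.22 and 0.705 CPM in H1975. RASAL1, a Ras GTPase-activating protein, was at 22.6 and 16.1 CPM in PC9ER and at 3.14 and 2.11 CPM in H1975, less than 1.5-fold lower in each. Each of these had its higher levels in PC9ER and was lower there with knockdown, and none passed the test. For IGFBP7 the H1975 values of 2 and 0 counts give no direction, since an observed 0 still allows 3 counts.

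Of the 36 gene lists read, the type I interferon response had the highest share of members that were higher in both lines. Of 34 tested, 31 were higher in H1975, 25 in PC9ER and 23 in both (67.6%), against 24.1% of all tested genes, and 1 was lower in both. The medians were log2 0.43 in H1975 and 0.24 in PC9ER, the direction held with DESeq2's size factors and with library totals, and 0 members passed the test. Leukocyte markers had a median of -0.23 in H1975 and -0.04 in PC9ER.

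XAF1, an interferon-induced cell death regulator, was at 30.7 CPM in control and 60.9 CPM in knockdown H1975 cells and at 2.92 and 4.59 CPM in PC9ER (log2 0.88 ± 0.98 SE). HERC6, an interferon-induced ubiquitin ligase family member, was at 28.8 and 45.5 CPM in H1975 and at 5.43 and 7.72 CPM in PC9ER. BST2, which tethers virus particles to the cell surface, was at 32.4 and 50.4 CPM in H1975 and at 0.883 and 1.33 CPM in PC9ER. All 3 were higher with knockdown in each line, from lower levels in PC9ER than in H1975. IFI27, named after its values were seen because its unadjusted p was the lowest of the list, was at 46.2 and 134 CPM in H1975 and at 0.136 and 0.174 CPM in PC9ER (log2 1.29 ± 0.52 SE). In these PC9ER libraries 3 counts equal 0.204 and 0.174 CPM, so the PC9ER values of IFI27 give no direction.

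The interferon levels were mainly those of H1975. In PC9ER only 13 of the 34 members reached 10 CPM in control, and 7 of these 13 were higher with knockdown (median 0.14). The summed level of the list was 1900, 2830 and 1210 CPM in control, anti-miR-147b and anti-miR-21 H1975 cells, and 533, 576 and 665 CPM in PC9ER. In H1975 31 of 34 members were ordered anti-miR-147b above control above anti-miR-21, and in PC9ER 6 were. Both knockdowns share the control library of their line. With miR-147b overexpressed the same list had median log2 ratios of 1.10 in AALE, 1.01 in HCC827 and 0.08 in PC9, so that it was also on the higher side there in cells given more of the miRNA.

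Other lists on the higher side in both lines had small medians. All 25 MYC and ribosome biogenesis genes were higher in H1975 and 15 in PC9ER, with medians of 0.09 and 0.04, and 15 were higher in both; with library totals 21 were higher in H1975. UTP20, a component of the small ribosomal subunit processome, was at 89.3 and 101 CPM in H1975 and at 4.42 and 9.46 CPM in PC9ER. NOLC1, a nucleolar chaperone of snoRNA particles, was at 544 and 608 CPM in H1975 and at 55.6 and 65.6 CPM in PC9ER. Both were above control in each line. Of 26 genes of the ATF4 and unfolded protein response 14 were higher and 1 lower in both, with medians of 0.18 and 0.05, among them ASNS, asparagine synthetase, at 120 and 172 CPM in H1975 and at 54.4 and 65.5 CPM in PC9ER. Of 23 NF-kB and cytokine genes 12 were higher and 2 lower in both, with IL6 at 7.89 and 10.7 CPM in H1975 and at 1.97 and 3.37 CPM in PC9ER. Over all genes tested, 24.1% were higher and 21.0% lower in both. With DESeq2's size factors 13 MYC, 10 ATF4 and 10 NF-kB list members were higher in both, and the PC9ER median of the ATF4 list was 0.01. With library totals these counts were 11, 15 and 12. None of the genes of these lists passed the test.

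C3, CFB and CT45A4 were among the 8 genes with the highest ratios in H1975 alone. C3, the central complement component, was at 9.42 CPM in control and 94 CPM in knockdown cells (log2 3.31), against 1190 and 1240 CPM in PC9ER. CFB, complement factor B, was at 22.5 and 74.2 CPM (log2 1.72), against 63.6 and 78.1 CPM in PC9ER. CT45A4, a cancer-testis antigen with near-identical copies, was at 23.8 and 75.3 CPM, against 0 and 0.058 CPM in PC9ER. The anti-miR-21 library of H1975 was also above control, at 37.3 CPM for C3, 42.1 CPM for CFB and 93.3 CPM for CT45A4. Basal and squamous markers had a median of 0.63 in H1975, where 13 of 17 were higher, and of -0.10 in PC9ER, and mesenchymal markers had medians of 0.21 and -0.37, with 14 of 18 higher in H1975 and 1 in PC9ER. KRT17, a basal keratin, was at 5.76 and 16.7 CPM in H1975 and at 37.6 and 17.5 CPM in PC9ER, so that it was higher in 1 line and lower in the other.

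Some loci differed so much in H1975 that their counting is in doubt. RP11-473M20.16, a non-coding locus, was listed at 2.05 CPM in control, 1450 CPM in anti-miR-147b and 3120 CPM in anti-miR-21 cells, and Metazoa_SRP, named for the signal recognition particle RNA, at 227 CPM in control and 0 CPM in anti-miR-147b cells. Expected counts divide reads among similar and overlapping loci, so these values are uncertain.

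Mitotic and mitochondrial transcripts lay on opposite sides in the lines. All 28 tested G2/M genes were lower in H1975 (median -0.41) and 26 were higher in PC9ER (median 0.31). CENPF, a kinetochore protein, was at 112 CPM in control and 47.3 CPM in knockdown H1975 cells and at 8.56 and 27.8 CPM in PC9ER. The 13 mitochondrially encoded genes had medians of -0.41 in H1975, where 0 were higher, and 0.42 in PC9ER, where 12 were higher. All genes with the mitochondrial prefix MT- together took 3.19% and 2.37% of counts in control and knockdown H1975 cells and 0.75% and 0.96% in PC9ER. Cholesterol genes had medians of -0.30 and 0.27, with 4 of 24 higher in H1975 and 20 in PC9ER. The anti-miR-21 libraries, which share the controls, had medians of -0.26 in H1975 and 1.00 in PC9ER for the G2/M list, of -0.48 and 0.90 for the mitochondrial list and of -0.26 and -0.44 for the cholesterol list, so that the cholesterol list lay on the other side in PC9ER.

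With 1 library per line and arm, a difference between the lines can be tested only by assuming that anti-miR-21 acts alike in both. This leaves 1 residual degree of freedom. The PC9ER anti-miR-21 library lay far from its control, unlike that of H1975, so the assumption is uncertain. Under that assumption edgeR called 20 of 17725 genes (0.113%), 8 with the higher log2 ratio in PC9ER and 12 in H1975, while DESeq2 called 1 and a fit of all 15 miRNA libraries 1. All 20 had 0 counts in at least 1 of the 4 libraries, 10 were protein-coding and 6 reached 10 CPM. GALNT4, a GalNAc transferase, was at 10.9 CPM in control and 0 CPM in knockdown H1975 cells, while the overlapping read-through locus POC1B-GALNT4 was at 0 and 12.1 CPM. In PC9ER GALNT4 was at 6.52 and 9.05 CPM and POC1B-GALNT4 at 1.43 and 0 CPM. No gene of the mitotic, mitochondrial or cholesterol lists was called, which does not show that the lines responded alike.

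The PC9ER ratios followed the length and base composition of the transcript. Across 10380 protein-coding genes Spearman's rho of the log2 ratio was 0.423 with transcript length and -0.536 with GC content in PC9ER, and -0.002 and 0.213 in H1975, each a description across genes. From the shortest to the longest of 5 bins of transcript length the PC9ER median went through -0.10, -0.04, 0.02, 0.08 and 0.26, and 186 of the 246 genes that were 2-fold higher lay in the longest bin. The H1975 medians stayed between 0.00 and 0.01. The longest bin took 14.05% of protein-coding counts in the PC9ER control, 15.49% in anti-miR-147b and 20.03% in anti-miR-21 cells. It took 17.36% to 17.68% in the 3 H1975 libraries and 16.59% to 23.38% in the 9 overexpression libraries. The PC9ER control and anti-miR-147b libraries thus lay below all the others, and the PC9ER anti-miR-21 library lay within the overexpression range.

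**Figure D5:**
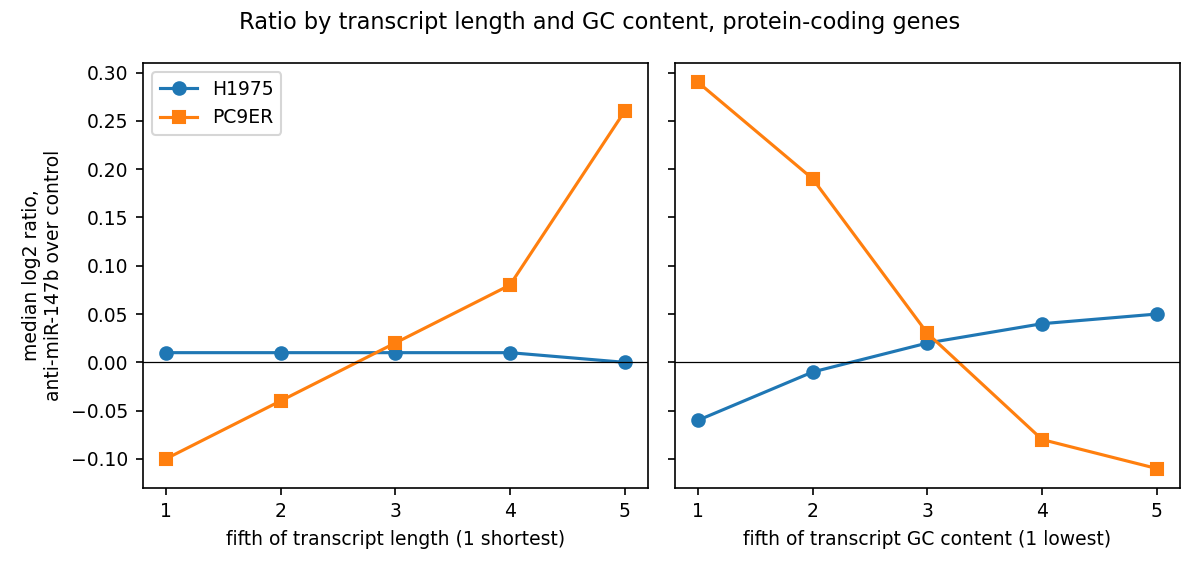
Median log2 ratio of anti-miR-147b over control (y axis) for protein-coding genes in 5 bins of transcript length (left, shortest to longest) and of GC content (right, lowest to highest), in H1975 (circles) and PC9ER (squares). The PC9ER median goes from -0.10 to 0.26 with length and from 0.29 to -0.11 with GC content, and the H1975 median stays between -0.06 and 0.05.

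MYCBP2 and DST are examples of long genes, named as among the 8 highest ratios in PC9ER and among the most opposite ratios of the lines. MYCBP2, a very large ubiquitin ligase, was at 4.08 CPM in control, 14.6 CPM in anti-miR-147b and 78.7 CPM in anti-miR-21 cells of PC9ER, and at 41.4, 44.5 and 37.7 CPM in H1975. DST, the cytoskeletal linker dystonin, was at 18.7, 44.5 and 259 CPM in PC9ER and at 203, 94.5 and 109 CPM in H1975. The PC9ER control library was the lowest of the 3 for both genes. EGFR, itself a long transcript, was at 238 and 392 CPM in PC9ER, with 595 CPM in the anti-miR-21 cells, and at 410 and 452 CPM in H1975 (log2 0.40 ± 0.36 SE). After ratios were centred on the median of genes of like GC content and length, 54 protein-coding genes were 2-fold or more higher in PC9ER against 246 before. The PC9ER median of the G2/M list went from 0.31 to 0.25 over the same 28 genes. For the EGFR family list it was 0.43 over 13 tested genes and 0.20 over the 10 with a centred ratio. The interferon medians, over 30 of 34 genes, were 0.52 in H1975 and 0.17 in PC9ER. In these latter lists the loss of members and the centring cannot be told apart. The part of these transcript properties in the PC9ER ratios beyond this centring was not tested.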

How the data were processed

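The authors deposited expected counts per gene, made with Bowtie2 and RSEM on GRCh37 per the submitters' processing notes, which name no version or annotation release. They also deposited a summary of reads and base quality per library, where a percent of 96.4 to 96.8 of bases were of quality 30 or above in the 6 knockdown and control libraries. Per the labels, an Illumina TruSeq mRNA kit was used. Control columns present in both miRNA tables, 5 in all, were identical, 0 of 105 pairs of the 15 miRNA libraries were, and 0 columns were left unmapped. A share of 64.4% of the nonzero values was fractional, and values were rounded before testing.

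Libraries were scaled by TMM, filtered with filterByExpr and tested by edgeR's quasi-likelihood test (edgeR 4.0.16 in R 4.3.3), calling genes at a Benjamini-Hochberg adjusted p under 0.05, over the 6 libraries with the line as block. The pairing is that of the labelled cell lines, whose centred libraries correlated at 0.797 to 0.93. With 1 library per line in each group, this correlation reflects the difference between the lines and shows nothing further about the pairing. DESeq2 1.42.0 and limma voom 3.58.1 were alternatives. Ratios within a line used TMM log2 CPM with a prior count of 2, for genes reaching 10 CPM in any 1 of 4 libraries. Transcript length, GC content, 3′ untranslated regions and snoRNA hosts came from GENCODE 29 on GRCh38, another build than the files', matched by gene identifier (98.3% of protein-coding genes of at least 10 CPM had a length). Ratios were also centred on the median of 10 bins of length within each of 10 bins of GC content. miRNA sequences are RefSeq's.

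Genes were named by rule: the highest and lowest ratios shared by both lines, of each line and of opposite sign, up to 4 members of each list with a shared sign, and the reported targets and their pathways. The shared ranking was added for protein-coding genes alone after the data were seen. The libraries, lists and rule were chosen with earlier results of these data known. Replication is by cell line, so the tests see the spread among these libraries and no more.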

Additional observations from a re-analysis of the deposited data

Results flagged for a closer look

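For 6 genes of at least 10 CPM in 1 of the 4 libraries, edgeR's interaction term called a difference between the lines in the anti-miR-147b ratio. Each line has 1 library per arm, so the spread in this test comes from assuming that anti-miR-21 acts alike in both lines, with 1 residual degree of freedom, and these are differences between single libraries. The fitted difference (PC9ER minus H1975, log2) was 10.97 for FP15737, 10.92 for GALNT4, -8.08 for GPX1P1, -14.00 for POC1B-GALNT4, -13.38 for U2 and -9.16 for UPK3BL. Each had 0 counts in at least 1 library, so the fitted size depends on the prior count and is no bound. GPX1P1 was at 0 and 1.92 CPM in control and knockdown H1975 cells and at 84.6 and 73.8 CPM in PC9ER, UPK3BL at 10.6 and 17.4 CPM and at 1.56 and 0 CPM. GALNT4 and POC1B-GALNT4 overlap each other, GPX1P1 is named as a pseudogene, and the values of such loci are uncertain.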

How the results depend on the processing

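For anti-miR-147b against control, where 0 genes passed over the 6 libraries, DESeq2 called 26, the fit with no filter on low counts 28, the 4 libraries alone 19 and the 4 libraries with DESeq2 24, and leaving out 1 library gave 13 to 134. Without the replicate block, that is unpaired, 0 passed, as with limma voom, with DESeq2's size factors and with all 15 miRNA libraries. Against anti-miR-21 DESeq2 called 1, and leaving out 1 library gave 0 to 4537, the latter without the H1975 anti-miR-21 library. For the difference between the lines, with 20 calls, DESeq2 and the fit of all 15 libraries each called 1 and protein-coding genes alone 10. Leaving out a library left no residual degrees of freedom there. For overexpression, with 1 call, DESeq2 called 7, limma voom 4, no filter 263, and 0 passed with no replicate block or over protein-coding genes alone, which leave MIR147B out, and leaving out 1 library gave 0 to 14.

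Among single-line counts of 2-fold genes, a minimum of 1 CPM gave 278 higher and 454 lower in H1975 and 705 and 414 in PC9ER. Protein-coding genes alone gave 56 lower in H1975 and 22 in PC9ER, and centring them on GC content and length 50 and 25 lower, with 54 higher in PC9ER. Other prior counts and scalings stayed within 1.5 times. CENPF went from -0.35 to 0.08 with the 4 libraries alone, and KRT17 from 0.05 to -0.34 with no replicate block. Of 216 list medians under alternatives, 38 differed by more than the spread of the lines or in sign. The cause of these differences was not tested. Alternatives for protein-coding genes, the centring and the 4 libraries with DESeq2 were chosen after seeing the data. Each line has 1 library per group, and ratios of genes under 10 CPM rest on few counts.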
